A study of Mus musculus with 40 samples.

Results

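The 2 strands of miR-486 were followed in total blood of ageing mice. They occupied 4 of the 1915 rows of the count table, mmu-miR-486a-5p, mmu-miR-486b-5p, mmu-miR-486a-3p and mmu-miR-486b-3p, and were taken from it by these names. The choice of miR-486 itself was made with earlier results of these data known. The a and b rows of a strand held identical counts in all 40 libraries, so each strand is reported once, as miR-486-5p or miR-486-3p. All 4 rows stayed in the edgeR fits, in their library totals and in the shares of microRNAs called. Small RNA was sequenced in 10 libraries at each of 4 ages, which were 12, 13.5, 15 and 16.5 months. Per the study's methods the mice were male wild-type C57B/6J animals, single housed, bled repeatedly from the orbital sinus under isoflurane, and part of them were trained in a water maze while a home cage group was not. The labels give only the age, so training could not be separated, and bleeding at the 3 later ages followed a memory test in trained mice, while the methods and the narrative differ on whether a first training came before the bleeding at 12 months. The question was which microRNAs of the blood change as the animals grow older.

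A microRNA is cut from a hairpin as a duplex, of which the strand that is loaded into Argonaute, the guide, is kept and the other, the passenger, is mostly degraded. The hairpin of miR-486 lies within Ank1, the gene of the membrane skeleton protein ankyrin-1 of red cells, and the mature 5p strand is abundant in erythroid cells and known also from muscle. In the annotation of GRCm38, the assembly that mm10 names, Mir486 took 128 bases at chr8:23142555-23142682 on the plus strand. It lay inside Ank1 (chr8:22974844-23150497, same strand). Of 17 Ank1 transcripts, 15 span the hairpin and 0 exons overlap it, so that its position is intronic, before the exon that starts at 23148281. The annotation holds 1 Mir486 gene, so the a and b names cannot be separated here by position.

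The microRNAs whose levels ran most like or least like those of the miR-486 strands over the 40 libraries are shown here because the results return to their base composition. Mature sequences are from RefSeq on GRCm38.p6, written 5′ to 3′, with the seed (bases 2 to 8) in capitals. The first pair ran with miR-486-5p and miR-16-5p ran against it.
let-7d-3p (chr13:48536024-48536045, minus strand): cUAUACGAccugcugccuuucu
miR-423-3p (chr11:77078086-77078108, minus strand): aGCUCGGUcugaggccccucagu
miR-16-5p (chr3:69009918-69009939, plus strand, and chr14:61631936-61631957, minus strand): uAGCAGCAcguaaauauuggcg
The next pair ran with miR-486-3p and miR-451a ran against it.
miR-423-5p (chr11:77078122-77078144, minus strand): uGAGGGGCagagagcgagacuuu
miR-25-5p (chr5:138165370-138165391, minus strand): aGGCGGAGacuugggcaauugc
miR-451a (chr11:78073186-78073207, plus strand): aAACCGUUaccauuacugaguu
No seed was shared among the 6. The microRNAs miR-151-3p, closest of all to miR-486-5p, and miR-328-3p, second closest to miR-486-3p, belong to the same groups.

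The libraries held between 2469196 and 21386209 counts with all rows summed, and were shallowest at 15 months (median 6196820). With identical rows counted once, miR-486-5p took 88.3% ± 3.58 (SD, n = 40) of all reads, with 80.9% in the lowest and 96.5% in the highest library, and ranked first of all microRNAs. By contrast, miR-486-3p took 0.0232% on average and ranked 41. The count of miR-486-5p ran from 1186908 to 9821086 per library and that of miR-486-3p from 33 to 4409 (median 869.5). Counting error therefore touched only the minor strand, where it amounted to an SD of 0.05 on the log2 scale at the median library and 0.25 in the library with 33 reads. These figures cover counting error only, since amplified reads without molecular identifiers are not independent molecules. In the shallowest library, from 16.5 months, connectivity with the other libraries was lowest (Z = -3.27, the only one of 40 beyond the limit of 2.5), and it also held the highest strand ratio.

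The sample type was checked with lists of microRNAs of blood and other tissues. The red-cell list was well covered. Over the 40 libraries miR-451a had 2086 to 207090 reads, miR-16-5p 3333 to 138577 and miR-92a-3p 27736 to 613163. Its 7 members together made up a median of 465763, 427274, 459014 and 398156 per 1000000 reads outside miR-486 (ppm) at 12, 13.5, 15 and 16.5 months, with ranges of 447798 to 496180, 376919 to 573833, 438881 to 476298 and 383978 to 481870. The 8 leukocyte microRNAs made up medians of 56079, 47699, 58089 and 53291 ppm, with 31828 to 72675 over all ages. Platelet and endothelial miR-126a was nearly absent, its 3p and 5p strands together at medians of 37.4, 11.5, 21.5 and 18.9 ppm, and liver miR-122-5p was at 0 in 35 libraries. Of the 5 muscle microRNAs, miR-1a-3p, miR-206-3p and miR-208a-3p were at 0 in all 40 libraries, miR-499-5p was at 0 in 34, and miR-133a-3p had at most 233 reads. In bulk blood, a changed number of red cells and a changed amount of RNA per cell cannot be told apart.

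The level of miR-486-5p was higher at 15 months than at 12 and 13.5 months, about 2-fold on the scale of counts per 1000000 (CPM) with TMM factors. At 12 months the lowest, median and highest libraries lay at 18.18, 18.44 and 19.22 log2 CPM. At 13.5 months they lay at 17.97, 18.55 and 18.93. At 15 months they lay at 18.91, 19.24 and 20.95. The 15-month libraries were thus shifted upward as a group, with 5 of 10 above every 12-month library and 8 of 10 above every 13.5-month library, but the groups overlapped. At 16.5 months the 3 values were 18.05, 18.50 and 19.97, so most libraries had returned to the range of the younger ages while the upper ones had not. Because TMM factors rescale each library by its other microRNAs, these values are relative and are not shares of the reads.

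**Figure D1:**
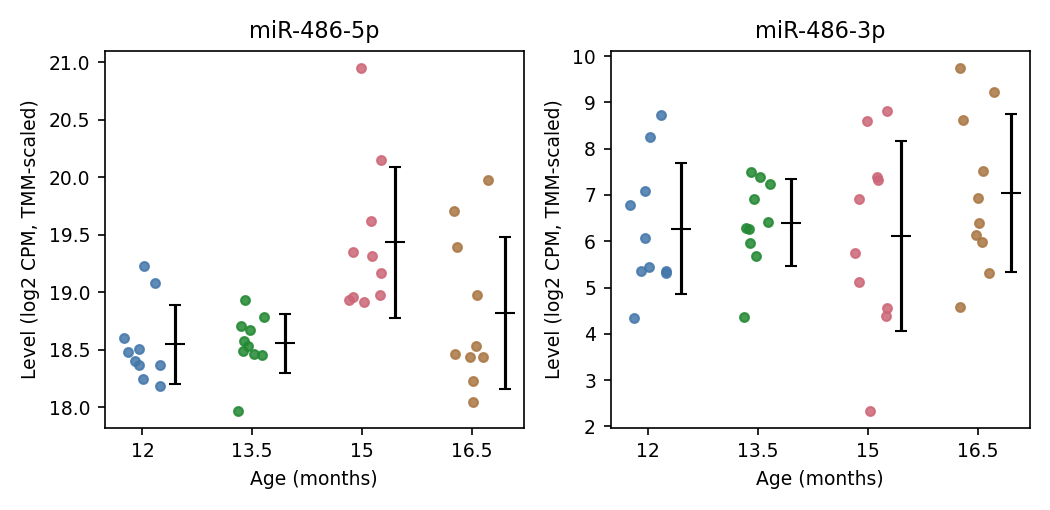
Levels of miR-486-5p (left) and miR-486-3p (right) in log2 CPM with TMM factors against age in months, on separate vertical scales. Each point is 1 library (10 per age), with the mean and SD beside the points in black. The 15-month libraries are shifted upward for the 5p strand, with a mean of 19.43 against 18.54 at 12 months, whereas the 3p libraries of all ages overlap widely.

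Mean levels of miR-486-5p were 18.54 ± 0.34, 18.56 ± 0.26, 19.43 ± 0.66 and 18.82 ± 0.66 log2 CPM (SD, n = 10 each) at 12, 13.5, 15 and 16.5 months. Tested over the 4 ages with edgeR's quasi-likelihood test and Benjamini-Hochberg adjustment over 105 microRNAs, the level changed (adjusted p = 0.000511). Change over age was common in this table, since 61% of the 105 rows tested passed (71 of 103 with the b rows left out). At 15 v 12 months the difference was 1.01 (log2 fold change, SE 0.24, edgeR adjusted p = 0.00223), with 10 of 10 libraries above the 12-month mean, while 7.62% of the microRNAs rose in that comparison. At 15 v 13.5 months it was 1.02 (SE 0.24, edgeR adjusted p = 0.00059), again in 10 of 10 libraries, against 17.1% of microRNAs that rose.

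From 15 to 16.5 months the 5p level fell by 0.63 on the log2 scale (SE 0.24, edgeR adjusted p = 0.0472), with 8 of 10 libraries below the 15-month mean, and 9.52% of microRNAs fell. This call stood close to the threshold. It was lost when 1 of 10 single libraries was left out (edgeR adjusted p up to 0.206, without the 15-month library at 20.95 log2 CPM). It was also lost when the fit held only these 2 ages (0.0974), with the b rows left out (0.0568) and with no filter (0.0765). A block by the number that opens the column names, which recurs at all 4 ages, took the call too (0.0538). In order of level, 12, 13.5 and 16.5 months did not differ beyond their spread. The differences were -0.01 (95% interval -0.50 to 0.48, edgeR adjusted p = 0.97) at 13.5 v 12 months, 0.38 (-0.11 to 0.87, edgeR adjusted p = 0.241) at 16.5 v 12 months and 0.39 (-0.10 to 0.88, edgeR adjusted p = 0.185) at 16.5 v 13.5 months. The shares of microRNAs called in these comparisons were 29.5%, 23.8% and 40%.

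Since miR-486-5p made up most of each library, it was also set against the reads of all other microRNAs of the same library, which needs no scaling factor. Each read outside miR-486 was accompanied by 4.55 to 10.4 miR-486-5p reads at 12 months (median 6.14), 4.24 to 9.51 at 13.5 months (median 6.88), 8.10 to 27.7 at 15 months (median 10.7) and 4.71 to 14.4 at 16.5 months (median 6.29). Again the 15-month libraries stood highest, with 6 of 10 above every 12-month library. The difference was 0.89 on the log2 scale at 15 v 12 months, or 1.85-fold (SE 0.20, permutation test, adjusted p = 0.00039 with all 6 pairs of ages considered), and 0.85 at 15 v 13.5 months (SE 0.20, permutation adjusted p = 0.00039), each in 10 of 10 libraries. From 15 to 16.5 months this measure fell by 0.69 (SE 0.24, permutation adjusted p = 0.0209), and the call was lost on ranks (permutation adjusted p = 0.0576) and with the same block (exact permutation adjusted p = 0.0625). When CPM was taken over library totals with no TMM factor, of which both 5p rows make up most, the difference at 15 v 12 months was 0.05 and was still called by edgeR. On that scale the other microRNAs moved the other way, with a median log2 fold change over all tested of -0.84 at 15 v 12 months. The rows of miR-486-5p were then the only 2 that rose at 15 v 12 months, while 82 of 105 fell, and the only 2 that fell at 16.5 v 15 months, while 64 rose.

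The columns of the table carried different forms of name, of one form at 12 and 16.5 months, of another at 13.5 months and of 2 further forms at 15 months. What a form marks is not stated. The rise at 15 months and the form of the name therefore cannot be told apart. Both forms present at 15 months were high, with 10.5 to 27.7 miR-486-5p reads per other read in 3 libraries and 8.10 to 18.04 in 7. The ages that share a form, 16.5 v 12 months, gave a difference of 0.20 (95% interval -0.24 to 0.64, permutation adjusted p = 0.529). The 15-month libraries also had the lowest TMM factors, on average 0.729 against 1.24, 1.22 and 1.09 at 12, 13.5 and 16.5 months. Because the rows of miR-486-5p make up most of each library, its log2 CPM closely follows the inverse of this factor. The library with the highest level, 20.95, had the lowest factor, 0.242, and that with the lowest level, 17.97, had the highest, 1.74. On this scale the rise and the factors are therefore not separate observations. The part of depth and of scaling in the rise was not tested further than by these measures.

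The level of miR-486-3p, the minor strand, did not pass the test over age and varied far more among libraries of 1 age. At 12 months the lowest, median and highest libraries lay at 4.34, 5.76 and 8.72 log2 CPM. At 13.5 months they lay at 4.37, 6.35 and 7.51, and at 15 months at 2.34, 6.33 and 8.82. At 16.5 months they lay at 4.58, 6.66 and 9.75. The 15-month group held a very low library and some of the highest ones, and the groups of all ages overlapped. Means were 6.27 ± 1.41, 6.40 ± 0.94, 6.12 ± 2.05 and 7.04 ± 1.71 log2 CPM (SD, n = 10 each). With edgeR the adjusted p over age was 0.257. Its within-age SD, 1.58, was the highest of the 105 microRNAs (its identical b row aside), ahead of 1.08 for miR-423-5p, and its fitted dispersion was also the highest. The SD of miR-486-5p, 0.51, ranked 30.

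No comparison of 2 ages passed for miR-486-3p. The nearest was 16.5 v 13.5 months, 1.29 (log2 fold change, 95% interval -0.04 to 2.61, edgeR adjusted p = 0.114), with 5 of 10 libraries above the 13.5-month mean. At 16.5 v 12 months the difference was 0.98 (-0.33 to 2.30, edgeR adjusted p = 0.258) and at 16.5 v 15 months 0.77 (-0.54 to 2.09, edgeR adjusted p = 0.419). At 13.5 v 12, 15 v 12 and 15 v 13.5 months the fitted differences were -0.30, 0.21 and 0.51, opposite in sign to the differences of the mean log2 CPM given above, and their 95% intervals were -1.60 to 0.997, -1.10 to 1.51 and -0.80 to 1.82. The differences at 16.5 months rested in part on the shallowest library. Without it they were 0.83 against 13.5 months, 0.52 against 12 months and 0.32 against 15 months (edgeR adjusted p = 0.311, 0.587 and 0.752), and the edgeR adjusted p over age was 0.661. Without the 12-month library with the highest 3p level, 8.72 log2 CPM, the value at 16.5 v 12 months was 1.49 (edgeR adjusted p = 0.0823). Per 1000000 reads outside miR-486 its medians were 976, 1356, 1707 and 1822 at the 4 ages, and the closest of the 6 comparisons had a permutation adjusted p of 0.783.

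This outcome depended on the treatment of the variation shared among libraries. When 1 factor estimated from deviations within ages (the RUVs approach, which the study's methods name) was added to the fit, the SE at 16.5 v 15 months shrank from 0.65 to 0.16. The 3p strand then passed over age (edgeR adjusted p = 0.000272). It was lower at 13.5 v 12 months (-0.56, edgeR adjusted p = 0.00306) and 15 v 12 months (-0.57, 0.00386), and higher at 16.5 v 13.5 months (0.55, 0.00218) and 16.5 v 15 months (0.55, 0.00363). In that fit most rows passed, 89 of 105 over age. At 13.5 v 12 and 15 v 12 months 27 and 30 rows were lower. At 16.5 v 13.5 and 16.5 v 15 months 31 and 30 rows were higher. For miR-486-3p at 16.5 v 12 months the value became -0.01. That factor carried 60.9% of the within-age variance of the tested microRNAs. Its correlation with the 3p level within ages was r = 0.970 over 40 libraries, and with the 5p level 0.837. Both strands were among the microRNAs from which the factor was estimated. For miR-486-5p the calls did not change with this factor, and the value at 15 v 12 months was 0.81.

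**Figure D2:**
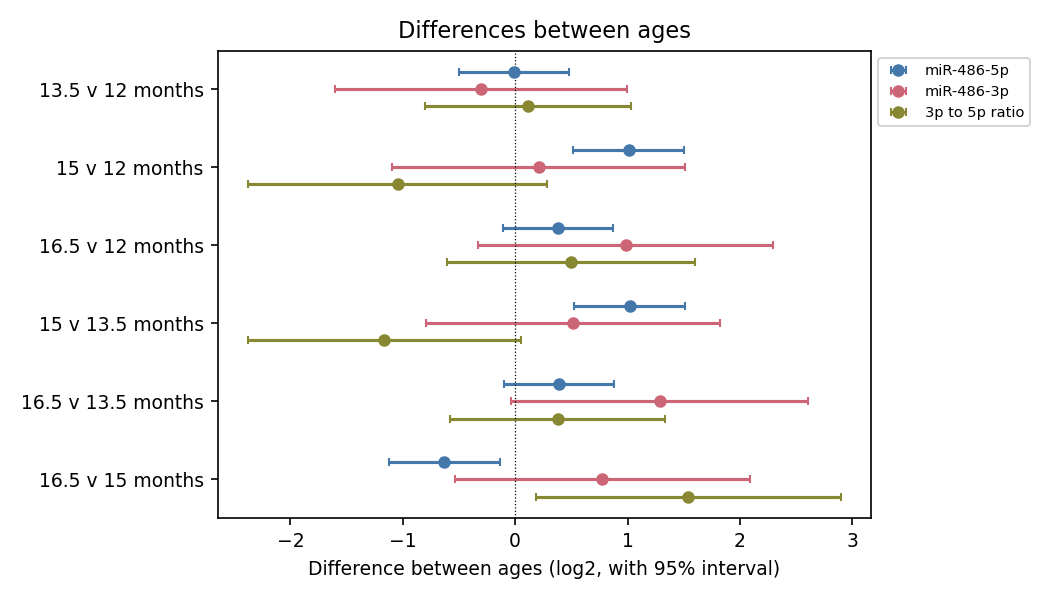
Differences between ages on the log2 scale, with 95% intervals that are not adjusted for the number of comparisons, for miR-486-5p and miR-486-3p (edgeR) and for the 3p to 5p ratio (difference of mean log2 ratios), in the 6 comparisons listed on the vertical axis. Intervals of the 5p strand are clear of 0 at 15 v 12, 15 v 13.5 and 16.5 v 15 months, while all those of the 3p strand include 0. The interval of the ratio is clear of 0 at 16.5 v 15 months (0.18 to 2.90). That difference was not called after adjustment (permutation adjusted p = 0.157).

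The ratio of the strands within a library is free of scaling between libraries. Per 1000000 miR-486-5p reads, the lowest, median and highest libraries had 54.8, 169 and 765 miR-486-3p reads at 12 months, 79.95, 222 and 462 at 13.5 months, 9.89, 149 and 388 at 15 months, and 65.8, 313 and 1002 at 16.5 months. The 15-month libraries reached lowest and the 16.5-month libraries highest, yet every pair of ages overlapped. Between the extreme libraries the ratio differed 101-fold, far beyond counting error, since the 15-month library with 33 reads had an exact binomial 95% interval of 6.80 to 13.9 per 1000000 reads of both strands and the highest library, from 16.5 months with 1189 reads, one of 945 to 1059. Mean log2 ratios were -12.28 ± 1.14, -12.16 ± 0.78, -13.32 ± 1.65 and -11.78 ± 1.21 (SD, n = 10 each).

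**Figure D3:**
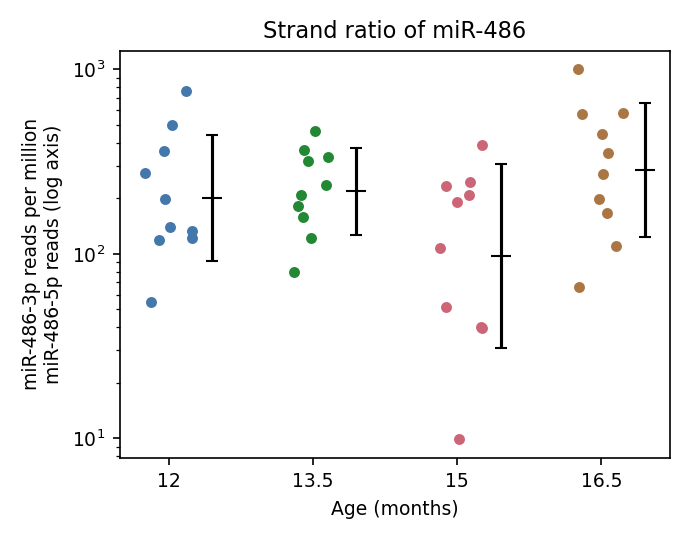
miR-486-3p reads per 1000000 miR-486-5p reads on a log axis, against age in months. Each point is 1 library (10 per age), with the mean and SD of the log2 ratio beside the points in black. Values run from 9.89 in a 15-month library to 1002 in a 16.5-month library, and all ages overlap.

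Over the 4 ages the ratio gave p = 0.0464 in a permutation test. Its adjusted p was 0.0581 over the 10 hairpins whose strands both passed the read filter, of which 70% were called at 0.05. It thus fell short of the threshold after adjustment. Leaving out single libraries moved the permutation adjusted p between 0.0242 and 0.197, and it went below 0.05 without any 1 of 6 libraries. Among pairs of ages the largest difference was 1.54 log2 units, or 2.91-fold higher, at 16.5 v 15 months (SE 0.65, permutation p = 0.0262, adjusted over 6 comparisons 0.157), in 9 of 10 libraries. Without the shallowest library it was 1.34 (permutation adjusted p = 0.168). At 15 v 13.5 months the difference was -1.16 (SE 0.58, permutation adjusted p = 0.168) and at 15 v 12 months -1.05 (SE 0.63, permutation adjusted p = 0.233). No pair of ages was called.

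Among the 10 hairpins, miR-486 had the most unequal strands and the most variable ratio. A hairpin with a strand that missed the read filter did not enter, however unequal its strands. The ranking therefore holds among these 10 only. Its mean log2 ratio of 3p to 5p was -12.38 ± 1.32 (SD, n = 40). The nearest hairpins were miR-30a with 47.5-fold, miR-30e with 19.2-fold and miR-15b with 17.8-fold more 5p than 3p reads, and 7 of the 10 favoured 5p. On the other side miR-25, of the miR-106b-25 cluster, favoured 3p 565-fold. The within-age SD of the log2 ratio was 1.23 for miR-486 against a median of 0.50 over the 10 hairpins. Its age means spanned 1.54 log2 units, against a median of 0.98, while miR-15b, whose ratio changed over age (permutation adjusted p over hairpins = 2.5e-05, the smallest that 100000 resamples and the adjustment allowed here), spanned 1.75.

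**Figure D4:**
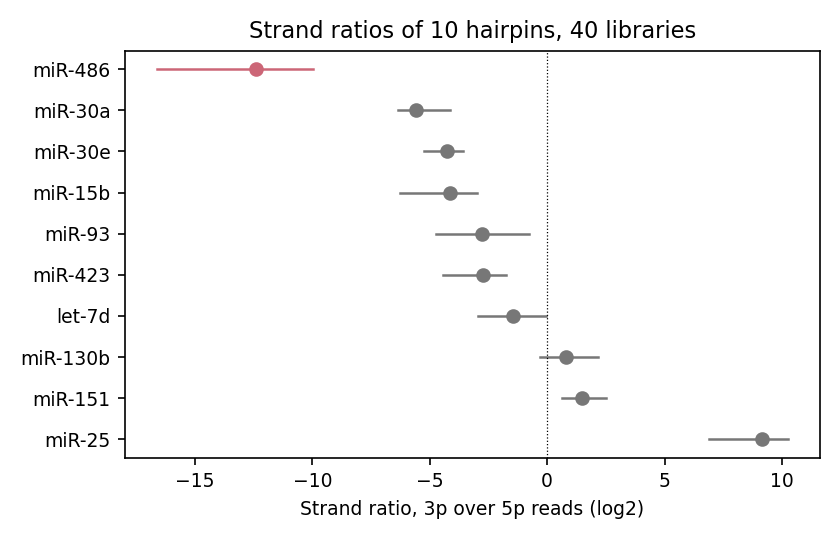
Log2 ratio of 3p to 5p reads of the 10 hairpins whose strands were both tested. Points are means over 40 libraries and lines run from the lowest to the highest library, with miR-486 in red. miR-486 lies at a mean of -12.38, apart from the next hairpin, miR-30a, at -5.57.

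On scaled values the strands of miR-486 tended to run together from library to library, apart from age. Pearson's r of their log2 CPM was 0.570 (Spearman's rho 0.534, n = 40) and 0.777 for deviations from the age means, with 0.851, 0.724, 0.727 and 0.845 within the 4 ages. Without the 2 libraries farthest from the median of 5p it was 0.506. These points share the library and its scaling factor. Set against reads outside miR-486 instead, the strands gave r = 0.543, or 0.797 within ages, but both then share that denominator. The log2 raw counts, which share only depth, gave r = 0.533, or 0.421 within ages. In the single ages r of the raw counts was 0.619, 0.896, 0.354 and -0.404, so at 16.5 months the counts ran opposite ways. The log2 strand ratio and log2 depth (members once) had r = 0.069 over all libraries, but 0.573 at 13.5 months and -0.866 at 16.5 months, so the ratio rose with depth at one age and fell with it at the other.

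Most like miR-486-5p over the 40 libraries were miR-151-3p (r = 0.819), let-7d-3p (0.782) and miR-423-3p (0.735), and least like it was miR-16-5p, of the miR-15/16 family, with r = -0.770. For miR-486-3p the closest were miR-423-5p (0.918), miR-328-3p (0.897) and miR-25-5p (0.860), and the farthest was miR-451a (-0.859), the Dicer-independent microRNA of red cells. The red-cell microRNAs went both ways, since miR-92a-3p ran with both strands (r = 0.671 with 5p and 0.721 with 3p), and the summed red-cell list had r = 0.187 with 5p and -0.036 with 3p. All these values are correlations of log2 CPM that share the library, its depth and its scaling, and are given as a description.

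The sequences printed above differ in base composition, and this was described for all tested microRNAs, a choice made after the values were seen. RefSeq held a sequence for 90 of the 101 other microRNAs (89.1%). Their median GC content was 45.6%. Among these 90, the median was 57.1% for the 20 most like miR-486-5p and 40.9% for the 20 least like it. For miR-486-3p it was 57.1% and 42.2%. The close microRNAs miR-151-3p and miR-328-3p were not among the 90. Across the 90 microRNAs, which are not independent, r of GC content with the likeness was 0.603 for 5p and 0.524 for 3p.

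A GC score per library was then formed as the mean log2 CPM of the 22 GC-richest microRNAs (at least 54.5% GC) minus that of the 22 GC-poorest (at most 40.9%), with miR-486 in neither. Within ages, miR-486-3p had r = 0.905 with this score and miR-486-5p 0.786, and the log2 strand ratio 0.839 (n = 40, over all ages 0.675, 0.673 and 0.489). Within single ages the 3p values were 0.881, 0.956, 0.957 and 0.947. The score was formed from the same log2 CPM after GC content was seen to go with likeness, so these r are not a separate result. The score averaged -0.08 ± 0.54, 0.45 ± 0.50, 0.48 ± 0.59 and -0.17 ± 0.41 (SD, n = 10 each) at 12, 13.5, 15 and 16.5 months. The part of base composition in the levels of miR-486 was not tested.

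**Figure D5:**
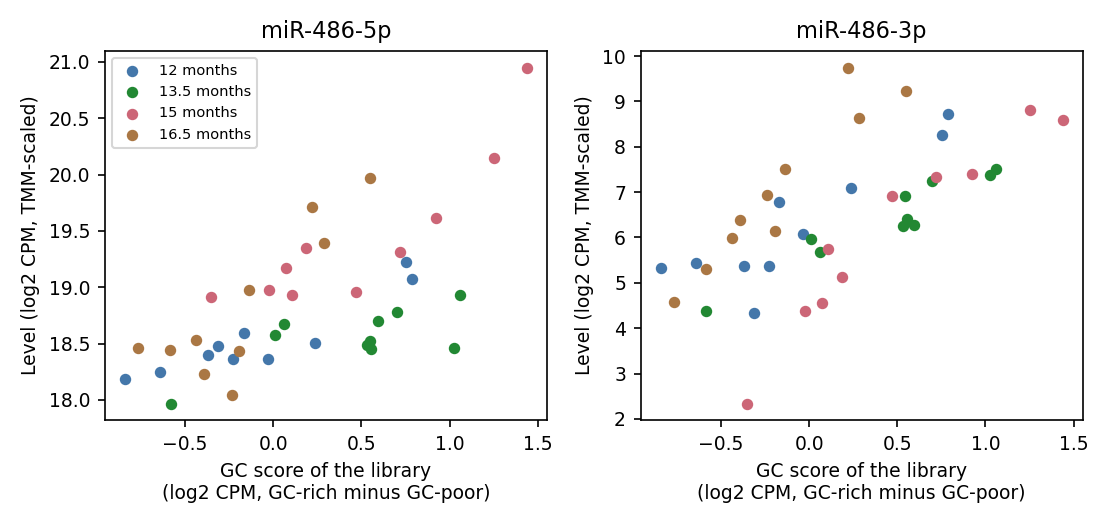
Levels of miR-486-5p (left) and miR-486-3p (right) in log2 CPM against the GC score of the library (mean log2 CPM of GC-rich minus GC-poor microRNAs), 40 libraries coloured by age. Within each age the 3p level rises with the score (r = 0.905 for deviations from the age means).

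The other red-cell microRNAs moved in both directions. Of the 7 listed, 6 were tested and 3 changed over age (edgeR adjusted p under 0.05), a share of 50% against 61% of all tested. At 15 v 12 months 0 rose and 1 fell, with a median log2 fold change of -0.31 against -0.06 over all tested. In that comparison 16.2% of all tested microRNAs fell. The one that fell was miR-16-5p (-0.50, SE 0.16, edgeR adjusted p = 0.0226). At 15 v 13.5 months 1 rose, miR-144-5p, a partner of miR-451a on the same transcript (1.24, SE 0.30, edgeR adjusted p = 0.00059), and 2 fell, miR-16-5p (-0.55) and its cluster mate miR-15a-5p (-0.86), where miR-486-5p rose by 1.02 and 30.5% of all tested microRNAs fell. This rise of miR-144-5p followed a fall at 13.5 v 12 months (-1.60, edgeR adjusted p = 3.01e-05). In that earlier comparison 0 of the 6 rose and 2 fell, while 15 of 105 tested fell. For miR-144-5p the value at 15 v 12 months was -0.36 (edgeR adjusted p = 0.381). At 16.5 v 15 months 0 of the 6 passed, with a median of -0.02, while 19% of all tested rose and 9.52% fell.

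The red-cell microRNAs that did not pass over age were miR-451a, miR-92a-3p and miR-25-3p. At 15 v 12 months their values were -0.25, 0.21 and 0.14, with edgeR adjusted p of 0.591, 0.637 and 0.264, beside 1.01 for miR-486-5p. The value of miR-451a was 0.59 at 15 v 13.5 months and -0.47 at 16.5 v 15 months (edgeR adjusted p = 0.131 and 0.317), the same signs as those of miR-486-5p. From library to library, however, miR-451a ran against miR-486-5p, with r = -0.574 over the 40 libraries and -0.815 within ages. The difference between these microRNAs and miR-486-5p was itself not tested. miR-144-3p was too low to test, with 1 to 122 reads. Of the leukocyte list 3 of 6 tested changed over age, against 61% of all tested. At 15 v 12 months 0 of the 6 rose or fell, with a median of 0.04, while 7.62% of all tested rose and 16.2% fell. At 16.5 v 12 months 3 of the 6 rose, where 14 of all 105 tested rose. At 16.5 v 15 months 2 rose, where 19% of all tested did.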

How the data were processed

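The authors trimmed adapters with cutadapt, checked reads with FastQC 0.11.5, and mapped them to mm10 by miRDeep2. The table they deposited holds raw read counts for each mature microRNA in miRBase, with the counts of all loci added up. A second deposited table, of normalized values, was not used. Each column was assigned to its age by its name, since the labels' replicate numbers do not recur in the columns (0 columns unused). The study bled the same mice over time, but no label ties a library to an animal, so the 40 libraries were treated as independent and p-values measure the spread between them. No duplicate was found (smallest chi-square per degree of freedom of 180 pairs within ages 19.6).

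Rows with more than 100 reads in at least 20 of 40 libraries (105, all 4 of miR-486 among them) entered edgeR 4.0.16 (R 4.3.3). It was run with TMM factors, glmQLFit and glmQLFTest, 4 ages in 1 fit, and Benjamini-Hochberg over all tested at a threshold of 0.05. Levels are log2 CPM with a prior count of 2, relative to totals that hold both identical rows. Ratios were compared by two-sided permutation tests with 100000 resamples (exact where a group had fewer than 10 libraries), in scipy 1.17.1. For reads outside miR-486, 130 rows equal to an earlier row were dropped. Scripts were tested on simulated data.

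Named were the members, the red-cell list, the 3 microRNAs most like and 1 least like each strand, and the 3 hairpins nearest in strand ratio with the 2 most 5p-biased. The members and lists were chosen with earlier results of these data known. Alternatives were DESeq2 1.42.0, limma 3.58.1 voom, other scalings and filters, 1 RUVs factor, only the ages compared, other statistics, and single libraries left out. A block by the number that opens the column names was added after the data were seen.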

Additional observations from a re-analysis of the deposited data

Results flagged for a closer look

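Of 20 groups of 10 libraries (5 measures of miR-486 at 4 ages) checked with Dixon's criterion, 1 held a library apart from the others, about as many as chance gives at 1 in 20. It was the 13.5-month library with the lowest miR-486-5p level, 17.97 log2 CPM, against a median of 18.55 at that age. The same library had the lowest share of miR-486-5p, 80.9% of reads counted once, and 214 miR-486-3p reads, also the fewest at 13.5 months.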

How the results depend on the processing

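Of 249 recomputed values for 33 results, single omissions aside, 224 kept direction and side of the threshold. The rise of miR-486-5p was called under all 12 alternatives at 15 v 12 months (0.05 to 1.10) and at 15 v 13.5 months (0.04 to 1.11). Its fall at 16.5 v 15 months lost the call with the b rows left out (-0.59), with no filter (-0.61) and with only the 2 ages (-0.69). Its value at 13.5 v 12 months changed sign with library totals (0.0033), scaling outside miR-486 (0.015), limma voom (0.14) and only the 2 ages (0.0021), and at 16.5 v 13.5 months with limma voom (-0.0033). miR-486-3p changed sign with library totals at 15 v 12 (-0.77) and 15 v 13.5 months (-0.65) and was then called at 16.5 v 15 months (1.28). With limma voom it changed sign at 13.5 v 12 (0.91), 15 v 13.5 (-0.88) and 16.5 v 13.5 months (-0.13). With 1 RUVs factor it was called over age (adjusted p = 0.000272), at 13.5 v 12 (-0.56), 16.5 v 13.5 (0.55) and 16.5 v 15 months (0.55), and changed sign at 15 v 12 (-0.57), 16.5 v 12 (-0.012) and 15 v 13.5 months (-0.0046). That fit called 89 of 105 rows over age. As a linear ratio, 3p per 1000000 5p reads differed by -20.2 at 13.5 v 12 months. On ranks, miR-486-5p per read outside lost its call at 16.5 v 15 months (mean rank difference -5.8). The causes were not tested.

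Leaving out single libraries kept 1287 of 1320 values. The rise of miR-486-5p kept its call throughout, at 0.74 to 1.11 for 15 v 12 months and 0.75 to 1.14 for 15 v 13.5 months. The fall of miR-486-5p at 16.5 v 15 months ranged from -0.79 to -0.36 and lost the call without any of 10 libraries, 3 of 15 months and 7 of 16.5 months. At 13.5 v 12 months the ranges were -0.070 to 0.036 for miR-486-5p, -0.38 to 0.14 for miR-486-3p, -0.092 to 0.33 for the ratio, -0.059 to 0.41 for 3p per 1000000 reads outside and -0.014 to 0.12 for 5p per read outside. At 15 v 12 months miR-486-3p ranged from -0.20 to 0.68, and per 1000000 reads outside from -0.44 to 0.28 (-0.60 to 0.12 at 15 v 13.5 months). The adjusted p of the ratio over age ranged from 0.0242 to 0.197.

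A replicate block by the number that opens the column names, added after the data were seen, took the call from the fall of miR-486-5p at 16.5 v 15 months (-0.60, edgeR adjusted p = 0.0538) and from the same fall per read outside (-0.69, exact permutation adjusted p = 0.0625), and changed no other call. The 10 numbers each recur at all 4 ages and may mark the animal, which no label states. Same-numbered libraries correlated above 0.1 in 3 to 5 of 10 pairs per pair of ages. Their median r ran from -0.26 to 0.25, against -0.03 to 0.10 for other numbers. The same number was the best match in 0 to 2 of 10. These values do not decide it. Counting error was appreciable only for the 3p strand in libraries with few reads.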
